A study of Mus musculus with 4 samples.

Results

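A sort for immune cells of mouse mammary tumours also let through 133 barcodes with transcripts of simple epithelium, among 15319 barcodes called as cells, and these epithelial barcodes are described here. A UMI is a molecular tag that counts 1 captured transcript. Barcodes were called as cells from 500 UMIs and 250 genes upwards if no more than 10% of their UMIs were mitochondrial. The members were chosen by their raw UMIs: a called barcode was taken as epithelial when Krt8, Krt18 and Epcam together had at least 5. It could hold at most 2 UMIs of Cd3d, Cd3e and Cd3g, at most 5 of C1qa, C1qb and C1qc, and at most 2 of Cd79a, Cd79b and Ms4a1. This gave 44 of 7875 called barcodes in the Jagged1/PyMT library and 89 of 7444 in the PyMT library. The levels of the marker genes are therefore a description only.

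Both genotypes were FVB/NJ mice aged 12 weeks. Jagged1/PyMT mice carry the polyoma middle T antigen, an oncogene that drives mammary tumours, together with Jagged1, and PyMT mice, which the design text also writes as WT/PyMT, are set against them. Tumours were digested, infiltrating immune cells were taken by FACS, and 10x Genomics libraries that read transcripts near their 3′ ends were made. The sources used here do not give the form of the Jagged1 allele, the promoters of either construct, the sort gate, or whether a Jagged1 transgene would share the counted end of Jag1. The labels list 2 samples per genotype, pooled in 1 matrix whose barcodes carry no sample name. With 1 library per genotype there was no test, and mice could not be compared with each other. "Higher" and "lower" below compare these libraries. The intervals are 95% and cover counting error only, not differences between barcodes or mice.

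Keratins 8 and 18 and the adhesion protein EpCAM mark the luminal cells of the mammary gland, whose alveolar branch makes milk proteins. JAGGED1 on a cell binds Notch receptors on its neighbour, after which the receptor is cut and its inner part joins RBPJ to switch on genes such as Hes1 and Hey1. Epithelial cells also secrete chemokines and colony-stimulating factors, which attract and sustain neutrophils, monocytes and macrophages.

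The Jagged1/PyMT library held 55506773 UMIs and the PyMT library 36012036. The epithelial barcodes held 465423 of them in Jagged1/PyMT and 1008474 in PyMT. They were deeper than the other called barcodes, with a median of 10767 UMIs and 2665 genes in Jagged1/PyMT and 8391 UMIs and 2532 genes in PyMT, where all called barcodes had medians of 4200 and 3841 UMIs. The libraries shared 70 called barcode sequences. No epithelial barcode was among the members of both libraries, but 2 PyMT members had a sequence that was also called in Jagged1/PyMT. At the limit of the rule, 3 barcodes in each library had exactly 5 marker UMIs, and 4 Jagged1/PyMT barcodes and 1 PyMT barcode missed it with 4.

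Not all members had an epithelial profile. In 7 Jagged1/PyMT barcodes and 1 PyMT barcode, the UMIs of 10 pan-immune genes, among them Ptprc (CD45), outnumbered the epithelial marker UMIs. This comparison was made after the values were seen. Of the 7, 5 had Epcam but no Krt8 or Krt18 UMI, and their transcripts included those of antigen-presenting dendritic cells. Dendritic cell markers, such as Cd74 and H2-Aa, summed to 5768 UMIs in the 7 barcodes (72236 CPM, counts scaled to 1000000 UMIs of the set), with 2 to 1390 in a barcode. The PyMT barcode had 37507 UMIs, of which 7 were Epcam, 2028 dendritic cell markers and 487 macrophage markers.

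Another group held almost no mitochondrial RNA. Among the members, 10 of 44 in Jagged1/PyMT (22.7%) and 26 of 89 in PyMT (29.2%) had at most 1% mitochondrial UMIs, with median depths of 2474 and 1873 UMIs. In barcodes of a T cell rule that share was 0.532% in Jagged1/PyMT and 0.0615% in PyMT, and in those of a macrophage rule it was 17.5% and 13.8%. Malat1, an abundant RNA kept in the nucleus, was found in 3 of the 8 low-mitochondrial Jagged1/PyMT barcodes that were not immune-dominated and in 6 of the 26 in PyMT. It was found in 27 of 29 of the remaining Jagged1/PyMT barcodes and in 59 of 62 in PyMT. These were deeper, with medians of 12018 and 13182 UMIs, which also raises detection. By summed UMIs, Malat1 was at 119 CPM in the 8 Jagged1/PyMT barcodes and 6205 CPM in the remaining ones. In PyMT it was not lower, at 9997 CPM in the 26 barcodes and 8057 CPM in the remaining ones.

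These remaining 29 and 62 barcodes, neither immune-dominated nor low in mitochondrial RNA, are called the core. They held 343445 UMIs in Jagged1/PyMT and 903646 in PyMT, with medians of 12018 and 13182 per barcode. In the core, Krt8 was found in 29 of 29 Jagged1/PyMT barcodes and 59 of 62 PyMT barcodes, Krt18 in 29 and 62, and Epcam in 29 and 61. The pan-immune genes had 53 UMIs in Jagged1/PyMT (154 CPM, 0 to 14 per barcode) and 102 in PyMT (113 CPM, 0 to 13). T cell markers had 3 and 2 UMIs, B cell markers 1 and 1, dendritic cell markers 12 and 40, fibroblast markers 2 and 3, and NK and endothelial markers none. Lists that share genes with epithelium had more. Plasma cell markers had 292 UMIs in Jagged1/PyMT and 828 in PyMT, of which 274 and 767 were Xbp1 and 16 and 50 Sdc1. Langerhans cell markers had 820 and 2495, of which 808 and 2469 were Epcam, a gene of the rule, and the 40 and 75 UMIs of the mast cell list were all Kit. Skin keratinocyte markers had 29 and 176 UMIs, with Sbsn at 15 and 77 and Krt14 at 7 and 81, and pericyte markers 16 and 25, of which 14 and 24 were Notch3. Adipocyte markers had 4 and 5 UMIs and erythroid markers 2 and 6. Macrophage markers had 78 UMIs in Jagged1/PyMT and 112 in PyMT, without any Csf1r. Of the neutrophil markers S100a8 was the one found, with 84 UMIs in Jagged1/PyMT and 29 in PyMT. Every result below is given for the core, and for all members where the difference matters.

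**Figure D1:**
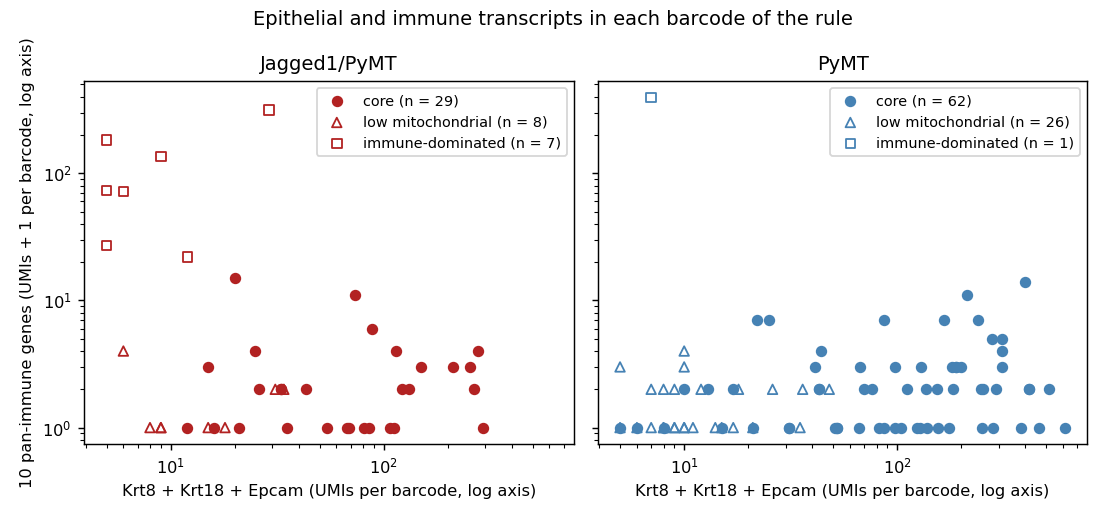
Each point is 1 epithelial barcode, with its Krt8, Krt18 and Epcam UMIs on the x axis and its UMIs of 10 pan-immune genes plus 1 on the y axis (both log axes), Jagged1/PyMT on the left and PyMT on the right. Filled circles are the 29 and 62 core barcodes and triangles those low in mitochondrial RNA. Squares are the 7 and 1 immune-dominated barcodes, set by having more pan-immune than epithelial marker UMIs.

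Epithelial barcodes made up a smaller share of the Jagged1/PyMT sort. They were 0.559% of called barcodes (Clopper-Pearson interval 0.406 to 0.749) in Jagged1/PyMT and 1.20% (0.961 to 1.47) in PyMT, a ratio of 0.467 (0.326 to 0.670). Without the immune-dominated barcodes the shares were 0.470% and 1.18%, a ratio of 0.397 (0.271 to 0.583). A sort for immune cells sets how many epithelial cells pass, so these shares do not measure tumour content.

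Jag1 was far higher in Jagged1/PyMT and was spread over most of its core barcodes. The 44 Jagged1/PyMT members had 118 Jag1 UMIs (254 CPM, exact Poisson interval 210 to 304) and the 89 PyMT members 4 (3.97 CPM, 1.08 to 10.2), a 63.9-fold difference with a log2 ratio of 6.0 (conditional binomial interval 4.60 to 7.90). All 118 lay in the core, at 344 CPM, against 1 UMI in the PyMT core (1.11 CPM), because 3 of the 4 PyMT UMIs were in the immune-dominated barcode. The core log2 ratio was 8.28, with a wide interval of 5.77 to 13.59 that follows from the single PyMT UMI.

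Within the Jagged1/PyMT core, Jag1 was widespread but uneven. It was detected in 26 of 29 barcodes (89.7%, 72.6 to 97.8), against 1 of 62 in PyMT. Per 10000 UMIs of a barcode it had a lowest value of 0, a median of 2.31 and a highest of 15.9 in Jagged1/PyMT, against a highest of 1.07 in PyMT. At least 3 UMIs were present in 14 of the 29, and the highest Jag1 counts in a barcode were 20 and 11. The 3 barcodes with no Jag1 UMI had 20693, 8946 and 5021 UMIs, so 1 of them was deeper than the core median. None of the low-mitochondrial barcodes of either library had a Jag1 UMI.

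Depth and free RNA were checked beside this. After thinning each barcode to 1000 UMIs, 7 of 29 Jagged1/PyMT core barcodes (24.1%, 10.3 to 43.5) still had a Jag1 UMI, against 0 of 62 in PyMT, where 3 barcodes, the limit that a count of 0 allows, would be 4.84% and the exact interval reaches 5.78%. Both limit the share of barcodes with a UMI at this depth, not of those expressing the gene. In barcodes of a B cell rule, a type that should lack the gene, 1.24% in Jagged1/PyMT and 0.143% in PyMT had a Jag1 UMI at median depths of 3188 and 3491 UMIs, and thinned shares were 0.392% and 0. Free RNA, taken from barcodes under 100 UMIs, had 15.1 CPM of Jag1 in Jagged1/PyMT and 6.19 in PyMT. The epithelial level in Jagged1/PyMT thus lay well above free RNA. Over all PyMT members the level of 3.97 CPM had an interval of 1.08 to 10.2, which includes that of free RNA there. Jag1 was also above free RNA in barcodes of the T cell rule in Jagged1/PyMT, at 23.5 CPM against 0.326 in PyMT.

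**Figure D2:**
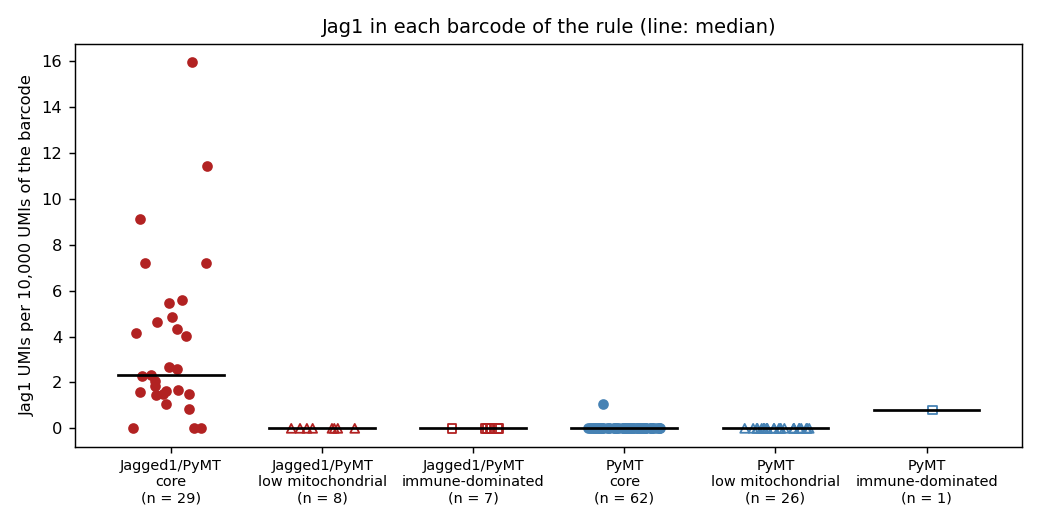
Jag1 UMIs per 10000 UMIs of each barcode (y axis), with a line at each group's median, for core, low-mitochondrial and immune-dominated barcodes of Jagged1/PyMT (left) and PyMT (right). The Jagged1/PyMT core has a median of 2.31 and reaches 15.9, and its low-mitochondrial and immune-dominated barcodes are all at 0.

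Notch receptors and targets did not follow the ligand. Among 9 Notch ligands and receptors, 4 had at least 20 UMIs over both libraries, the minimum used for ratios, and Jag1 alone was past 2-fold. Of all 6195 genes measured so in the core, 3.24% were at least 2-fold higher and 8.17% at least 2-fold lower, over all members 5.28% and 8.1% of 6856, and without the immune-dominated barcodes 3.1% and 7.94% of 6446. Notch1, the most counted receptor, had 22 UMIs in 13 of 29 Jagged1/PyMT core barcodes and 89 in 41 of 62 PyMT core barcodes (64.1 and 98.5 CPM), a log2 ratio of -0.62 (-1.37 to 0.07). Notch3 had 14 UMIs in Jagged1/PyMT and 24 in PyMT, a log2 ratio of 0.62 (-0.45 to 1.63), and Notch2 6 and 19, a log2 ratio of -0.27 (-1.88 to 1.11). Each of these core intervals includes 0. The other ligands were scarce, with 2 UMIs of Dll1 in Jagged1/PyMT and 13 in PyMT, 0 and 6 of Dll4 and 1 and 1 of Jag2.

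Hes1 and Hey1, the basic helix-loop-helix repressors that report RBPJ-dependent Notch activity in many tissues, had almost the same summed level in both cores. Hes1 had 78 UMIs in 15 of 29 Jagged1/PyMT barcodes and 203 in 33 of 62 PyMT barcodes, which is 227 and 225 CPM and a log2 ratio of 0.02 (-0.38 to 0.40). Hey1 had 52 UMIs in 18 barcodes and 134 in 32, which is 151 and 148 CPM and a log2 ratio of 0.03 (-0.46 to 0.50). Both intervals lie within a 1.5-fold difference in either direction. Medians per 10000 UMIs were higher in Jagged1/PyMT, at 0.752 against 0.454 in PyMT for Hes1 and 0.755 against 0.374 for Hey1. The barcodes of the libraries overlapped throughout.

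Sox9, a transcription factor of mammary progenitors, was the target whose interval excluded 0. It had 271 UMIs in 24 Jagged1/PyMT core barcodes and 488 in 50 PyMT core barcodes, a log2 ratio of 0.55 (0.33 to 0.76), and 0.40 without the highest barcode of each library. The other core log2 ratios were -0.40 for Myc, -0.16 for Id1, -0.11 for the cell cycle inhibitor Cdkn1a, -0.07 for the luminal factor Gata3, 0.13 for Bcl2, 0.24 for Cd44, 0.31 for Ccnd1, 0.36 for Id2, 0.40 for Hes6 and 0.55 for Dtx3l, the last at -0.14 without the highest barcodes. Of 24 listed targets, 14 were measured, among them the receptor Notch3 given above. None was past 2-fold, and their median was 0.19, against -0.07 over all genes. Of the 14, 10 were above 0, as were 2740 of the 6195 genes measured in all. Hes5, Heyl, Hes2, Dtx1 and Snai2 had no UMI in either library. Of 20 genes of Notch cleavage and transcription, 10 were measured, none past 2-fold, with a median of 0.15. They included Aph1a at 0.20, Ncstn at 0.67 and Psenen at 0.10, parts of the gamma-secretase that cuts the receptor.

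**Figure D3:**
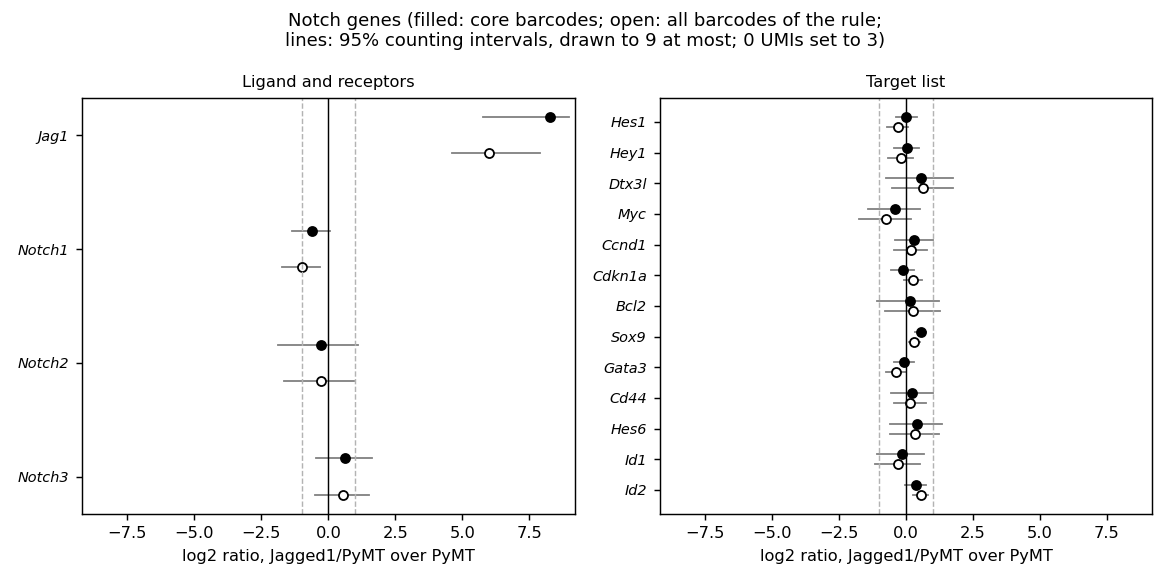
Log2 ratios of Jagged1/PyMT over PyMT (x axis) for Notch ligands and receptors (left) and the target list without Notch3 (right). Filled points are for the core, open points for all members and lines for 95% counting intervals. Jag1 stands at 8.28 in the core and 6.0 in all members, and no receptor or target is past the dashed lines at 2-fold.

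The neutrophil chemokines Cxcl1 and Cxcl2 were lower in the Jagged1/PyMT core. Both encode ligands of CXCR2, and their genes neighbour each other on chromosome 5. They are shown by the 150 bases before their start sites, with the longest run of letters common to both windows in capitals. This run, GGGAATTTCCCTGG, has 14 letters and opens with a sequence of the NF-kB binding type. It begins 71 bases before the start of Cxcl1 and 97 before that of Cxcl2. The bases are from RefSeq's GRCm38.p6 promoters, chr5:90891095-90891244 and chr5:90903749-90903898, both on the plus strand and written 5′ to 3′.
Cxcl1: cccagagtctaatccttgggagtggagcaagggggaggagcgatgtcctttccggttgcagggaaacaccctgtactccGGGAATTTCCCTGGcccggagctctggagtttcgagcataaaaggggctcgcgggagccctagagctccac
Cxcl2: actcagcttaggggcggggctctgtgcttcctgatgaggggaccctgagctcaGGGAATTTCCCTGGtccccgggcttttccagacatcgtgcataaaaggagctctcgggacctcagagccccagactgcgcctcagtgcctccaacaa
On either strand (CCAGGGAAATTCCC on the other), it is in the same window of 2 of 32851 promoters (0.00609%), these 2. Both genes were chosen for display after their values were seen, and the run describes letters only.

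Cxcl1 had 10 UMIs in 3 of 29 Jagged1/PyMT core barcodes and 159 in 22 of 62 PyMT core barcodes, 29.1 and 176 CPM, a log2 ratio of -2.60 (-3.68 to -1.68). Cxcl2 had 1 UMI in 1 Jagged1/PyMT core barcode and 203 in 12 PyMT core barcodes, 2.91 and 225 CPM, a log2 ratio of -6.27 (-11.58 to -3.78). Without the highest barcode of each library the log2 ratios were -3.57 for Cxcl1 and -4.43 for Cxcl2, the second with 0 UMIs in Jagged1/PyMT set to 3. Most core barcodes of either library had neither transcript, and no Jagged1/PyMT core barcode had over 6 UMIs of Cxcl1, against 35 in the highest PyMT barcode. Free RNA held more than the core of its own library, with 132 CPM of Cxcl1 in Jagged1/PyMT and 305 in PyMT, and 1737 and 1219 CPM of Cxcl2. Its part in the core values was not tested.

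Over all members, Cxcl2 depended on the immune-dominated barcodes. It had 70 UMIs in Jagged1/PyMT, of which 45 were in 1 immune-dominated barcode, and 471 in PyMT, of which 265 were in the immune-dominated barcode there, a log2 ratio of -1.63, which turned to 1.37 when each barcode had equal weight. The other chemokines with enough UMIs in the core were near 0. Cx3cl1, the membrane-bound ligand of CX3CR1, had 26 UMIs in Jagged1/PyMT and 74 in PyMT, a log2 ratio of -0.11 (-0.82 to 0.55). Cxcl16 was at 0.07 (-1.03 to 1.08), and at -0.54 without the highest barcodes, and Ccl27a at 0.51 (-0.59 to 1.54).

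Of 34 listed chemokines, 5 were measured in the core, 2 of them at least 2-fold lower and none higher, with a median of -0.11. Over all members 9 were measured, 2 of them higher and 5 lower, with a median of -1.63. The 4 that all members add are immune cell chemokines from few barcodes. They are Ccl4, with 30 UMIs in Jagged1/PyMT and 0 in PyMT, Ccl5 with 1 and 102, Ccl6 with 0 and 174, and Ccl9 with 2 and 25, and the first 3 had no UMI in the core. Ccl2, which attracts monocytes and macrophages, also had no UMI in either core, and its 16 UMIs in PyMT were in 1 immune-dominated barcode. At these core depths 3 counts, the value used in place of 0 UMIs, would be 8.74 CPM in Jagged1/PyMT and 3.32 CPM in PyMT.

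Among growth factors and cytokines of myeloid cells, Csf3 and Lif were lower and Spp1 higher in Jagged1/PyMT. Csf3, which encodes the neutrophil growth factor G-CSF, had 0 UMIs in the Jagged1/PyMT core and 55 in 7 of 62 PyMT core barcodes. With the 0 set to 3 UMIs it was 6.97-fold lower, a log2 ratio of -2.80 whose interval had an upper end of -2.45. Of the 55, 22 were in 1 barcode. Lif, an IL-6 family cytokine, had 1 UMI in Jagged1/PyMT and 55 in 9 PyMT barcodes, a log2 ratio of -4.39 (-9.72 to -1.85). Both thus came from few PyMT barcodes, and most PyMT core barcodes had neither. Csf1, the macrophage growth factor, had 9 UMIs in 5 Jagged1/PyMT barcodes and 44 in 12 PyMT barcodes, a log2 ratio of -0.89 (-2.11 to 0.16), with 21 of the 44 in 1 barcode.

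Spp1, which encodes the secreted phosphoprotein osteopontin, was found in most core barcodes of both libraries. It had 5562 UMIs in 21 of 29 Jagged1/PyMT core barcodes and 6672 in 45 of 62 PyMT core barcodes, 16195 and 7383 CPM, a log2 ratio of 1.13 (1.08 to 1.18). Per 10000 UMIs the barcodes spanned 0 to 900 with a median of 23.6 in Jagged1/PyMT, against 0 to 488 with a median of 15.3 in PyMT. The narrow counting interval therefore stands beside a very wide spread over barcodes that overlaps between the libraries. Mif, a cytokine that signals through CD74, had 309 UMIs in Jagged1/PyMT and 443 in PyMT, which gave a log2 ratio of 0.88 (0.66 to 1.09). Tgfb2 was at -1.22 (-2.51 to -0.13), Tnf at -0.22 (-1.13 to 0.62; -0.94 without the highest barcodes), Tgfb3 at -0.11 and Tgfb1 at 0.22. Of 20 listed genes, 10 were measured in the core, 2 at least 2-fold higher (Spp1 and Vegfa) and 3 lower (Csf3, Lif and Tgfb2), with a median of -0.16. Il1b, with 346 UMIs in the Jagged1/PyMT members and 1 in PyMT, had 3 of the 346 in the core.

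Several milk genes were lower in Jagged1/PyMT, apart from caseins of 1 barcode. Wap, the whey acidic protein of late alveolar differentiation, had 7 UMIs in 4 of 29 Jagged1/PyMT core barcodes and 183 in 27 of 62 PyMT core barcodes, 20.4 and 203 CPM, a log2 ratio of -3.31 (-4.65 to -2.24). Lalba, the alpha-lactalbumin subunit of lactose synthase, had 417 UMIs in 15 barcodes and 2189 in 46, a log2 ratio of -1.0 (-1.15 to -0.84). Btn1a1, needed to secrete milk fat, had 11 UMIs in 4 barcodes and 74 in 28, a log2 ratio of -1.35 (-2.42 to -0.43). Without the highest barcode of each library these log2 ratios were -4.13 for Wap, -1.09 for Lalba and -2.60 for Btn1a1.

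Other milk genes were within 2-fold, and all given here but Ltf were found in most barcodes of both libraries. Wfdc18 had 2940 UMIs in all 29 Jagged1/PyMT core barcodes and 14160 in 58 of 62 PyMT core barcodes, a log2 ratio of -0.87 (-0.93 to -0.81), and -1.05 without the highest barcodes. Kappa-casein, Csn3, had 3907 UMIs in Jagged1/PyMT and 14115 in PyMT, with a log2 ratio of -0.46 (-0.51 to -0.41), and medians of 89.0 and 134 per 10000 UMIs. Ltf, which encodes the iron-binding protein lactoferrin, was found in 5 of 29 Jagged1/PyMT barcodes and 35 of 62 PyMT barcodes, with a log2 ratio of -0.54. The iron carrier gene Trf was at -0.09 and Lcn2 at -0.26. Xdh, a component of the milk fat globule, was at -0.77, the folate receptor Folr1 at -0.70, the lipid droplet gene Plin2 at -0.01 and the milk fat globule gene Mfge8 at 0.34. All of these but Mfge8 were below 0.

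The beta-casein gene Csn2 had 370 UMIs in the Jagged1/PyMT core and 0 in the PyMT core, and all 370 came from 1 barcode. The same barcode, with 11092 UMIs of which 8 were Jag1, held 365 of 369 Csn1s1 UMIs and all 96 Csn1s2a UMIs of the Jagged1/PyMT core. The summed log2 ratios of 1.04 for Csn1s1 and 3.46 for Csn1s2a turned to -4.89 and -0.60 without the highest barcode of each library. In PyMT, Csn1s1 was in 14 of 62 barcodes. Of 20 listed milk genes, 16 were measured in the core, 4 at least 2-fold higher (these 3 caseins and Spp1) and 2 lower (Wap and Btn1a1), with a median of -0.36, and 11 of the 16 were below 0, as were 3455 of the 6195 genes measured in all.

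Genes of luminal progenitors were mixed. Plet1, a surface protein of such cells, had 179 UMIs in 28 of 29 Jagged1/PyMT core barcodes and 1170 in 59 of 62 PyMT core barcodes, 521 and 1295 CPM, a log2 ratio of -1.31 (-1.55 to -1.08), and -1.34 without the highest barcodes. Elf5, the transcription factor of the alveolar lineage, had 101 UMIs in 25 and 338 in 52 barcodes, a log2 ratio of -0.35 (-0.68 to -0.02). The receptor Kit was at 0.49 (-0.10 to 1.06), Lurap1l at 0.40, Tspan8 at 0.04 (-0.64 without the highest barcodes) and Cd14 at -0.11. Aldh1a3, an aldehyde dehydrogenase, was at -1.54, but 35 of its 46 PyMT UMIs were in 1 barcode. Of 13 listed genes, 10 were measured in the core, 3 of them at least 2-fold lower (Plet1, Muc1 and Aldh1a3) and none higher, with a median of -0.04.

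General luminal genes were mostly below 0, with 15 of the 19 measured of 20 below it and a median of -0.26, where 3455 of all 6195 genes were below 0 with a median of -0.07. The 3 past 2-fold were all lower. Cldn4, a tight junction claudin, had 246 UMIs in Jagged1/PyMT and 1362 in PyMT, a log2 ratio of -1.07 (-1.28 to -0.88). The mucin Muc1 had 8 and 57 UMIs at -1.44 (-2.72 to -0.36), and the epithelial transcription factor Ovol1 7 and 58 at -1.65 (-3.03 to -0.52). E-cadherin, Cdh1, was at -0.71 (-1.28 to -0.18) and the claudins Cldn7 and Cldn3 were at -0.71 and -0.20. The transcription factors Ehf, Elf3 and Grhl2 were at -0.57, -0.30 and 0.40, the splicing factor Esrp1 at -0.23, and the polarity gene Crb3 at -0.46. Krt7 and Krt19 were at -0.47 and 0.22, Cd24a at -0.26, Erbb3 at -0.04, and the protease inhibitors Spint1 and Spint2 at -0.09 and -0.05.

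Most hormone-sensing and basal genes had few or no UMIs, but Gata3 and Igfbp5 were found in most core barcodes of both libraries. The oestrogen receptor Esr1 had 2 UMIs in Jagged1/PyMT members and 3 in PyMT members, and the progesterone receptor Pgr had none. Of 15 hormone-sensing genes, 3 were measured in the core, with Prlr at 0.13, Gata3 at -0.07 and Ly6a at -1.67, so 1 was at least 2-fold lower and the median was -0.07. The basal genes Krt5, Acta2, Krt6a, Cnn1, Cdh3, Dsg3 and Col17a1 had no UMI. Krt14 had 7 UMIs in 4 Jagged1/PyMT core barcodes and 81 in 16 PyMT core barcodes, a log2 ratio of -2.14 (-3.50 to -1.03). Krt17 had 29 and 1 UMIs, but 25 of the 29 were in 1 barcode. Igfbp5, found in 28 of 29 and 62 of 62 barcodes, was at -0.29, the integrin Itgb4 at 0.30 and the laminin Lamb3 at -0.19. Of 18 basal genes, 5 were measured, 1 of them at least 2-fold higher and 1 lower, with a median of -0.19. Of 18 genes of mesenchymal transition, 3 were measured in the core, with Vim at 0.32, Itgb3 at 0.21 and Snai1 at -1.48, so none was at least 2-fold higher, 1 was lower, and the median was 0.21.

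**Figure D4:**
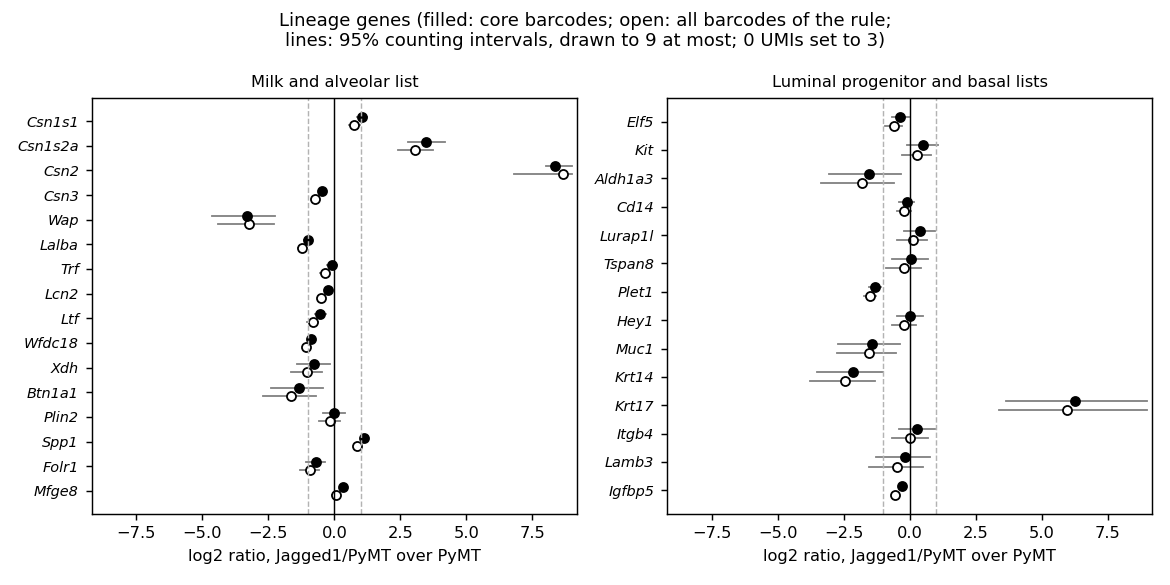
Log2 ratios of Jagged1/PyMT over PyMT (x axis) for milk genes (left) and luminal progenitor and basal genes (right), with filled points for the core, open points for all members and lines for 95% counting intervals drawn to 9 at most. Wap at -3.31, Krt14 at -2.14 and Plet1 at -1.31 lie left of 2-fold in the core, and the caseins Csn2, Csn1s2a and Csn1s1 on the right rest on 1 barcode.

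Several hypoxia and glycolysis genes were at least 2-fold higher in the Jagged1/PyMT core, some of them through 1 barcode. Egln3, an oxygen sensor induced by HIF, had 43 UMIs in 12 of 29 Jagged1/PyMT core barcodes and 24 in 12 of 62 PyMT core barcodes, 125 and 26.6 CPM, a log2 ratio of 2.24 (1.48 to 3.02). Pgk1, which makes ATP in glycolysis, had 133 UMIs in 19 barcodes and 102 in 38, 387 and 113 CPM, a log2 ratio of 1.78 (1.40 to 2.17). Without the highest barcode of each library, Egln3 stayed at 2.10 and Pgk1 was at 1.08. Free RNA held 11.2 CPM of Egln3 in Jagged1/PyMT and 7.07 in PyMT, and 260 and 136 CPM of Pgk1. The part of free RNA in the core values was not tested. The highest Jagged1/PyMT barcode for Pgk1, with 63 of its 133 UMIs, was the one that held 25 Krt17 UMIs and no Jag1.

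Of 27 listed genes, 25 were measured in the core, 7 at least 2-fold higher and none lower, with a median of 0.18. Besides Egln3 and Pgk1 these were the phosphofructokinase Pfkp at 1.45, the mutase Pgam1 at 1.03, the pyruvate dehydrogenase kinase Pdk1 at 2.69, the mitophagy gene Bnip3 at 1.68 and Vegfa at 1.02. Without the highest barcodes Pfkp was at 1.16, Pgam1 at 0.64, Pdk1 at 1.21, Bnip3 at -0.11 and Vegfa at -0.06, so the last pair rested on single barcodes. The highest Jagged1/PyMT barcode for Pgk1 was also the highest for Pfkp (30.8% of its UMIs), Pgam1 (33.0%), Bnip3 (76.5%) and Vegfa (64.7%). These ratios are thus not independent of each other. Another barcode held 72.7% of the Jagged1/PyMT UMIs of Pdk1, and without the highest barcodes 6 were left against 7 in PyMT. Ldha, Gapdh and Pkm, later steps of the pathway, were at 0.01, -0.18 and -0.17.

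**Figure D5:**
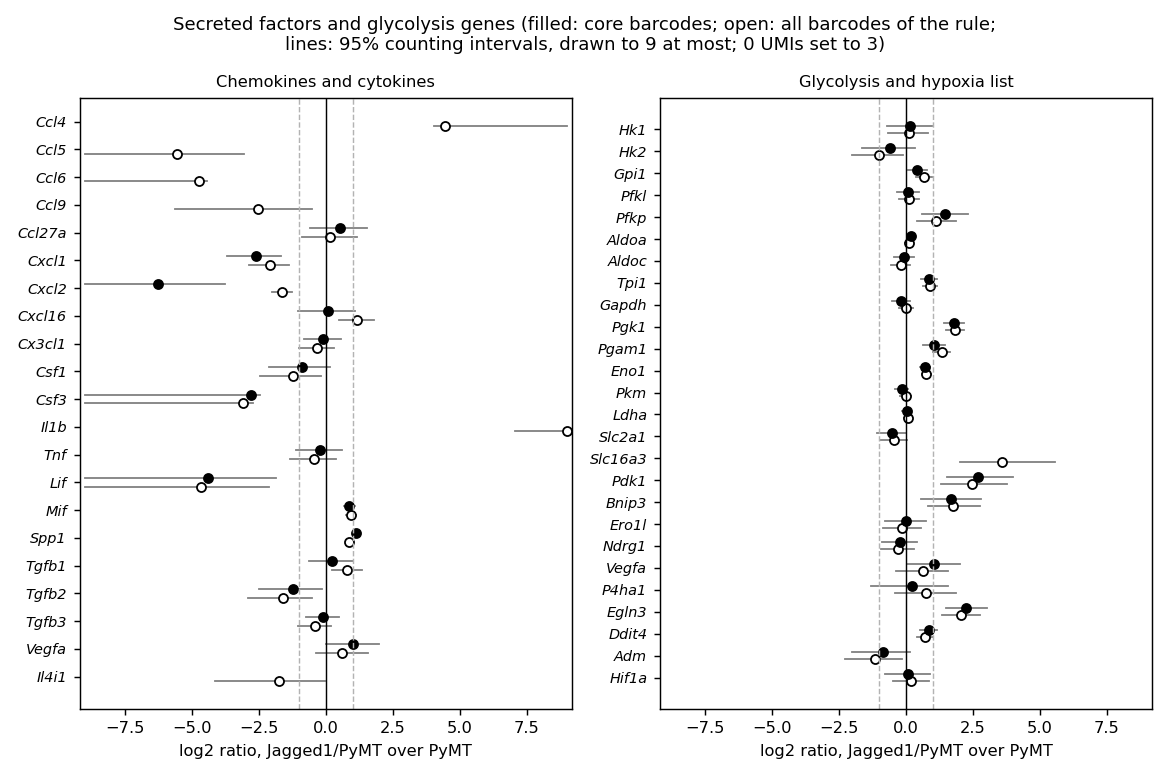
Log2 ratios of Jagged1/PyMT over PyMT (x axis) for chemokines and cytokines (left) and the glycolysis and hypoxia list (right), with filled points for the core, open points for all members and lines for 95% counting intervals drawn to 9 at most. Cxcl2 at -6.27, Lif at -4.39 and Cxcl1 at -2.60 lie to the left in the core, and Pdk1 at 2.69, Egln3 at 2.24 and Pgk1 at 1.78 to the right.

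Several interferon-induced genes were higher in Jagged1/PyMT. Bst2, the membrane protein tetherin, had 66 UMIs in 15 of 29 Jagged1/PyMT core barcodes and 47 in 22 of 62 PyMT core barcodes, 192 and 52.0 CPM, a log2 ratio of 1.89 (1.32 to 2.46). Irf7, the regulator of type I interferon genes, was at 1.43 (0.77 to 2.10), Rtp4 at 1.81, the nucleic acid sensor Zbp1 at 1.59 and Oasl2 at 2.59. Free RNA held 161 CPM of Bst2 in Jagged1/PyMT and 82.2 in PyMT. It held 72.0 and 41.5 CPM of Irf7, whose core levels were 119 and 44.3 CPM. The part of free RNA in these core values was not tested. Irf1 was lower, with 11 and 69 UMIs and a log2 ratio of -1.25 (-2.32 to -0.33), and all 32 UMIs of Ifit3 came from 1 PyMT barcode. The same barcode held 50 of the 76 PyMT UMIs of Isg15, which was at 0.01 (-0.66 to 0.64), and at 1.23 without the highest barcodes. Without them Bst2 was at 1.76, Irf7 at 1.29, Rtp4 at 1.74, Zbp1 at 1.25 and Oasl2 at 2.90. Of 25 listed genes, 14 were measured in the core, 5 at least 2-fold higher and 2 lower, with a median of 0.51. MHC class I genes showed little difference, with H2-K1 at -0.21, H2-D1 at 0.15 and B2m at 0.01. Of 15 in that list 9 were measured, none past 2-fold, with a median of 0.12. Of 20 surface and secreted genes that restrain immune cells, 8 were measured, none past 2-fold, with a median of 0.15, among them the "do not eat me" protein Cd47 at 0.49 and Nectin2 at -0.73.

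Immediate early genes, which tissue digestion induces, did not all differ in 1 direction. Fos was at 0.08, Jun at 0.78, the heat shock gene Hspa1a at 0.80, and Socs3 at 0.96. Ier3, a survival gene induced by NF-kB, had 423 UMIs in 21 Jagged1/PyMT core barcodes and 2853 in 52 PyMT core barcodes, a log2 ratio of -1.36 (-1.51 to -1.21), and Fosb had 163 and 861 at -1.01. The NF-kB inhibitor Nfkbia was at -0.46. Of 19 listed genes, all were measured in the core, 2 at least 2-fold lower and none higher, with a median of 0.15. Of the 19, 14 were above 0 and 5 below, where 2740 of all 6195 genes were above 0 with a median of -0.07.

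Acute-phase and secreted defence genes included Slpi, an inhibitor of neutrophil elastase, which had 102 UMIs in 10 Jagged1/PyMT core barcodes and 77 in 20 PyMT core barcodes, a log2 ratio of 1.80 (1.36 to 2.25), and 1.45 without the highest barcodes. Saa1 was at 0.49, the endotoxin-binding protein Lbp at -0.72, Nupr1 at -0.64 and the complement gene C3 at -1.19 (-3.18 to 0.35). Of 19 listed, 11 were measured in the core, 1 at least 2-fold higher and 1 lower, with a median of -0.30. Of 25 growth factor genes, 4 were measured, Vegfa higher as above and none lower, with Hbegf at -0.22 (-1.60 without the highest barcodes, since 131 of its 198 Jagged1/PyMT UMIs were in 1 barcode), Pdgfa at -0.04 and Inhbb at -0.41, and a median of -0.13.

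Cell cycle genes looked different depending on which members were counted. Over all members, 12 of 29 listed genes were measured, with a median of 1.34 and 8 at least 2-fold higher in Jagged1/PyMT. In the core, 6 were measured, with a median of -0.47, none higher and 2 lower. Mki67, a marker of cycling cells, had a log2 ratio of 1.59 over all members and -0.19 in the core, where it was in 2 barcodes of each library. Those lower in the core were Birc5, with 58 of its 63 PyMT UMIs in 1 barcode, and Cenpf, with 18 of 22 in 1 barcode. Of 385 cell cycle UMIs in the Jagged1/PyMT members, 70 were in the core, against 281 of 324 in PyMT, and 133 and 105 were in 2 Jagged1/PyMT barcodes outside it.

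Across the whole table, ranked by the interval bound nearest 0, the 12 highest in the core were Jag1, Egln3, Pgk1, Slpi, Bst2, Spp1 and Irf7, given above, and Phactr1, Aqp5, Ddah1, Arhgef6 and Klf2. Aqp5, a water channel of secretory epithelium, had 400 UMIs in 25 of 29 Jagged1/PyMT barcodes and 482 in 44 of 62 PyMT barcodes, a log2 ratio of 1.13 (0.93 to 1.32), with medians of 6.35 and 3.01 per 10000 UMIs. Klf2, a Krüppel-like transcription factor, was at 0.98 (0.76 to 1.20), with 879 CPM in the Jagged1/PyMT core and 445 in the PyMT core. Free RNA held 851 CPM of Klf2 in Jagged1/PyMT and 971 in PyMT, and its part in the core values was not tested. Arhgef6, an exchange factor for Rac, was at 1.34 (0.88 without the highest barcodes). Phactr1, a regulator of protein phosphatase 1 and actin, was at 1.96, and Ddah1, which breaks down dimethylarginine, at 1.63.

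The 12 lowest were Pinc, Ctgf, Csf3, Wap, Lif, Maff, Lao1, Egr3, Dmkn, Lrg1, 2210407C18Rik and Fosl1. Pinc, a non-coding RNA of pregnant and involuting mammary gland, had 0 UMIs in Jagged1/PyMT and 100 in 21 of 62 PyMT core barcodes. With the 0 set to 3 UMIs it was 12.7-fold lower, a log2 ratio of -3.66 whose interval had an upper end of -3.34. Ctgf, a matricellular YAP target, had 0 and 57 UMIs, but 28 of the 57 were in 1 barcode. Treated in the same way it was 7.22-fold lower, a log2 ratio of -2.85 with an upper end of -2.51. The stress-induced factors Maff and Fosl1, which pair with other leucine zipper proteins, were also lower. Maff had 29 UMIs in 11 barcodes and 392 in 34, a log2 ratio of -2.36 (-2.96 to -1.82), and Fosl1 had 11 in 6 and 129 in 33, a log2 ratio of -2.16 (-3.19 to -1.27). Lrg1, a secreted glycoprotein of the acute-phase response, had 105 and 872 UMIs at -1.66 (-1.96 to -1.36). The immediate early factor Egr3 was at -3.17, Dmkn at -2.85, the amino acid oxidase Lao1 at -3.03 and 2210407C18Rik at -3.28. Of the 12 higher and 12 lower genes in the core, 2 and 10 were also named when all members were ranked. The highest of that ranking included Cst3, H2-Ab1, H2-Aa and Plbd1, which myeloid antigen-presenting cells express.

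With the immune-dominated and low-mitochondrial barcodes included, the log2 ratios were -3.25 for Wap, -1.50 for Plet1, -2.07 for Cxcl1, -0.31 for Hes1, -0.20 for Hey1, 0.87 for Spp1, 2.04 for Egln3, 1.82 for Pgk1 and 1.69 for Bst2, so each kept its core direction except Hes1 and Hey1, which were near 0 in the core. Spp1 was then below 2-fold. List medians over all members were -0.63 for milk genes, -0.46 for general luminal genes, -0.22 for luminal progenitors, 0.22 for Notch targets, 0.41 for hypoxia and glycolysis, 0.59 for interferon-induced genes and 0.28 for MHC class I, against -0.06 over all genes. Of the milk genes 2 were then at least 2-fold higher and 5 lower, and of the hypoxia and glycolysis genes 7 and 2.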

How the data were processed

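Each deposited matrix gives UMI counts for 31053 genes in 737280 barcodes. The authors made them in Cell Ranger 3.0.2, per the submitters' processing notes. The barcode list has the size of an older kit's list than the v3.1 kit the labels name. The sources used here do not name the aligner, genome build or annotation. No cell filter or normalisation had been applied.

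UMIs were summed per library and set of barcodes and given as CPM, with exact Poisson intervals. Shares have exact binomial (Clopper-Pearson) intervals, ratios of CPM exact conditional binomial ones, and ratios of shares log-normal ones. Ratios are Jagged1/PyMT over PyMT for genes with at least 20 UMIs over both libraries. Where a library had 0 UMIs of a gene, 3 counts were used in its place, also in medians. Per 10000 UMIs, per-barcode values are raw. Free RNA came from barcodes under 100 UMIs. Scrublet's automatic threshold marked 0% of called barcodes in Jagged1/PyMT and 0.0403% in PyMT and was taken to have failed, so doublets were left in. An alternative removed the top expected share, 496 and 443 barcodes, of which 3 and 2 were members.

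Members and gene lists were chosen with earlier results of these data known. Named genes were the Notch, chemokine and lineage lists, up to 6 members of each other list with the largest ratios, and the 12 higher and 12 lower genes by the interval bound nearest 0. The last had at least 50 UMIs over both libraries, UMIs in at least 5 barcodes of the higher library and a level above its free RNA, without mitochondrial and ribosomal protein genes. Other list members were named after their values were seen, as were the immune-dominated and core sets. Steps were tested on simulated data. Python 3.11.15, numpy 2.4.6, scipy 1.17.1, pandas 2.3.3, scanpy 1.11.5 and matplotlib 3.10.9 were used.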

Additional observations from a re-analysis of the deposited data

Results flagged for a closer look

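Jag1 was also found in barcodes with epithelial markers that the rule left out. Of the barcodes above the mitochondrial limit, 7 in Jagged1/PyMT held 11 Jag1 UMIs in 4 barcodes (489 CPM, exact Poisson interval 244 to 876). The 25 such PyMT barcodes held 0 Jag1 UMIs, with an exact interval up to 32.6 CPM. The median mitochondrial shares of these barcodes were 20.8% in Jagged1/PyMT and 16.5% in PyMT. Of the barcodes past the immune limits, 15 in Jagged1/PyMT held 10 Jag1 UMIs in 4 barcodes (43.5 CPM, 20.8 to 79.9). The 10 such PyMT barcodes held 0 Jag1 UMIs, with an exact interval up to 27.1 CPM. Both sets were singled out because they lie outside the counted members and had 0 Jag1 UMIs in PyMT. Above the mitochondrial limit, the Jagged1/PyMT interval lay above that of PyMT. Past the immune limits the intervals overlapped, so they do not settle a difference there. Whether such barcodes hold more than 1 cell was not tested.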

How the results depend on the processing

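The lower epithelial share in Jagged1/PyMT kept its direction in the 8 alternatives tried. No paired analysis was possible because the samples of a genotype were pooled without sample names on the barcodes, and for the same reason no sample could be left out. The log2 ratio of Jag1 was 6.0 over all members, 4.47 with a mitochondrial limit of 5%, 8.10 with at least 10 marker UMIs, 8.21 with at least 5 UMIs of Krt8 and Krt18, 8.22 without immune-dominated barcodes, 8.28 in the core and 2.35 after thinning to 1000 UMIs, where the PyMT members had 0 UMIs set to 3. Genes at least 2-fold higher numbered 362, and 200 with Krt8 and Krt18, 195 with at most 2 pan-immune UMIs, 200 without immune-dominated barcodes, 201 in the core, 584 with equal weight per barcode, 44 after thinning, 110 and 1014 with minimums of 50 and 5 UMIs, and 230 above free RNA only. Genes at least 2-fold lower numbered 555, and 61 after thinning, 196 and 1194 with minimums of 50 and 5 UMIs.

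The chemokine median of -1.63 was -0.24 with at least 10 marker UMIs, -0.16 with Krt8 and Krt18, -0.27 with at most 2 pan-immune UMIs, -0.16 without immune-dominated barcodes, -0.11 in the core, -0.39 with equal weight per barcode, -0.40 with equal weight in the core, and -0.33 with a minimum of 5 UMIs or above free RNA only. It reversed to 1.89 after thinning, where Cxcl2 alone was left. Over 161 genes and 2058 values, 1633 stayed inside the counting interval, 383 left it, and 42 turned in sign where that interval excluded 0. Sign changes of genes whose interval included 0 are not among the 42. With a mitochondrial limit of 5%, Aldh1a3 was at 1.12, Arhgef6 at -0.41, Csf1 at 0.86, Ltf at 0.60, Ly6a at 0.44 and Socs3 at -0.20. Mki67 was at -0.026 with Krt8 and Krt18 and at -0.030 without immune-dominated barcodes. With at most 2 pan-immune UMIs, Cenpa was at -0.86, Mki67 at -1.855, Rrm2 at -0.27 and Trf at 0.017. In the core, Hmgb2 was at -0.026, Mki67 and Top2a at -0.19, Rrm2 at -1.19 and Tyms at -0.60. With equal weight per barcode, Cxcl2 was at 1.37, Il4i1 at 0.94, Rrm2 at -0.22, Trf at 0.053 and Tyms at -0.14. With equal weight in the core, Ccl9 was at 1.81, Cldn3 at 0.044, Fn1 at 0.10, Grasp at -0.41, Rrm2 at -2.28, Spint2 at 0.078, Top2a at -0.84, Trf at 0.28 and Tyms at -1.47. Without the highest core barcode of each library, Bnip3 was at -0.11, Csn1s1 at -4.89, Csn1s2a at -0.60 and Cxcl16 at -0.54. After thinning, Btn1a1 was at 0.20, Cd24a at 0.13, Ctgf at 0.52, Cxcl2 at 1.89, Fscn1 at 0.20, Krt7 at 0.026 and Spint2 at 0.0095. The causes were not tested. Counts of 29 and 62 core barcodes limit all single-gene values.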
